A study of Rattus norvegicus with 30 samples.

Results

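The 10 genes of growth cones and of axon regeneration, Gap43, Basp1, Sprr1a, Gadd45a, Socs3, Nrep, Ncam1, L1cam, Chl1 and Cd44, were followed for 14 d after a rat sciatic nerve was cut, in the proximal sciatic nerve stump (SN) and in the dorsal root ganglia (DRG) that hold the cell bodies of its sensory axons. The members were all probes that carry one of these gene names on the array, and 9 of the 10 genes were found so, with 13 probes. No probe is named Sprr1a, and RefSeq lists the array's names Sprr1al and Sprr1b as synonyms of it. By the array's description of the protein, the probe named Sprr1al was taken and Sprr1b was left out. That made 14 probes of 41012, and all 14 passed the filter on dim probes in both tissues. Results below are from the brightest probe of each gene, and the other probes are given where their call differed.

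RNA was measured on 30 single-colour Agilent arrays of adult male Sprague-Dawley rats, 15 of SN and 15 of the L4-6 DRG, with 3 arrays at each of 0, 1, 4, 7 and 14 d after a segment of the left sciatic nerve had been resected. No group carried an agent or an altered gene, and the animals of all later days had the same operation. The 0 d tissue was the uninjured control that all later days of a tissue share, and no sham-operated group is among the arrays. The study's methods, written for the nerve, name 3 biological replicates for each time point. The number of rats on each array is not given, so the spread between arrays may be partly technical. A level below is the normalized signal, the log2 intensity minus the 75th percentile of its array, and a probe was called changed when its adjusted p, from limma with Benjamini-Hochberg adjustment over all probes tested, was under 0.05 and its change was over 2-fold.

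After a cut, a peripheral axon regrows from a growth cone, a motile tip whose membrane carries the phosphoproteins GAP43 and BASP1 and adhesion molecules of the immunoglobulin family such as NCAM1, L1CAM and CHL1. The neuron's cell body meanwhile switches on a set of injury-induced genes, among them Sprr1a, a small proline-rich protein otherwise known from the cornified layer of skin, and Gadd45a, a stress gene of growth arrest and DNA repair. SOCS3 is an inhibitor of cytokine signalling through JAK and STAT3, and is known as a brake on axon regrowth. NREP, also named P311, is a small protein of regenerating neurons and of healing tissue, and CD44 is the hyaluronan receptor of leukocytes, glia and fibroblasts.

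Probes of Sprr1a and Cd44 are shown because their sequence or position bears on what a signal means. That of Socs3 is printed beside them without a marked stretch. The Sprr1a probe lies on chr2:185464443-185464502 (rn4, minus strand) and is a tandem repeat with a unit of 24 bases, the first unit being in capitals. No other probe on the array holds a stretch of that length from it. The small proline-rich genes resemble each other, and whether RNA of another of them bound this probe was not tested. The Socs3 probe lies on chr10:107958703-107958762 (minus strand). The second Cd44 probe has 60 bases that the files place on chr3:88044582-88048264 (minus strand), a span of 3683 bases, so it covers more than 1 block of the genome, while the main Cd44 probe lies on chr3:88023965-88024025. The other main probes lie on chr11:60083891-60083950 (Gap43, plus strand), chr4:96650454-96650513 (Gadd45a), chr18:25842137-25842196 (Nrep) and chrX:159784995-159785054 (L1cam, all minus strand). Those of Basp1 and Ncam1 span chr2:76878396-76927536 and chr8:52825923-52826918 (minus strand), and the files give no position for the Chl1 probes.
Sprr1a: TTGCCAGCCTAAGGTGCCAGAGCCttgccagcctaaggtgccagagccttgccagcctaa
Socs3: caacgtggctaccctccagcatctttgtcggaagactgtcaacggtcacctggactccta
Cd44: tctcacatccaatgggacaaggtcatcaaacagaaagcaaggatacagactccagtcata

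The uninjured tissues differed first. Gap43, the growth cone phosphoprotein that marks growing axons, had levels of 0.98, 1.60 and 1.83 on the 3 SN arrays at 0 d and of 5.28, 5.30 and 5.31 on the 3 DRG arrays, so the groups lay far apart. Its level was 14.2-fold lower in SN (log2 difference -3.83, SE 0.15, adjusted p = 2.16e-16 by limma). Basp1, which binds the inner face of the membrane as GAP43 does, stood at -2.34 to -1.94 in SN against 1.37 to 1.70 in DRG (12.4-fold lower, -3.63, SE 0.14, adjusted p = 1.80e-16). L1cam, an adhesion molecule of axons and of non-myelinating Schwann cells, had 3.16 to 3.31 in SN against 5.2 to 5.32 in DRG (4.12-fold lower, -2.04, SE 0.11, adjusted p = 5.04e-14).

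Nrep ran the other way, with -2.61 to -1.92 in SN against -4.55 to -4.04 in DRG. It was 3.95-fold higher in SN (1.98, SE 0.14, adjusted p = 1.63e-11), and its second probe gave 2.04. These 4 genes were the members called, 1 higher and 3 lower in SN, where 20% of all probes tested were called higher and 15.5% lower. Of the 6 others, Ncam1 had a difference of -0.96, Chl1 of -0.68 and Cd44 of -0.56, with adjusted p from 3.42e-06 to 2.82e-05 and changes under the fold threshold, while Gadd45a, Sprr1a and Socs3 lay between -0.53 and 0.29. On the 1 slide that held all 3 SN arrays and 1 DRG array of 0 d, the differences were -3.82 for Gap43, -3.80 for Basp1, -1.97 for L1cam and 1.87 for Nrep, so the 4 were as large within that slide. SN and DRG are bulk tissues, in which fewer cells of a type and less RNA per cell cannot be told apart.

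**Figure D1:**
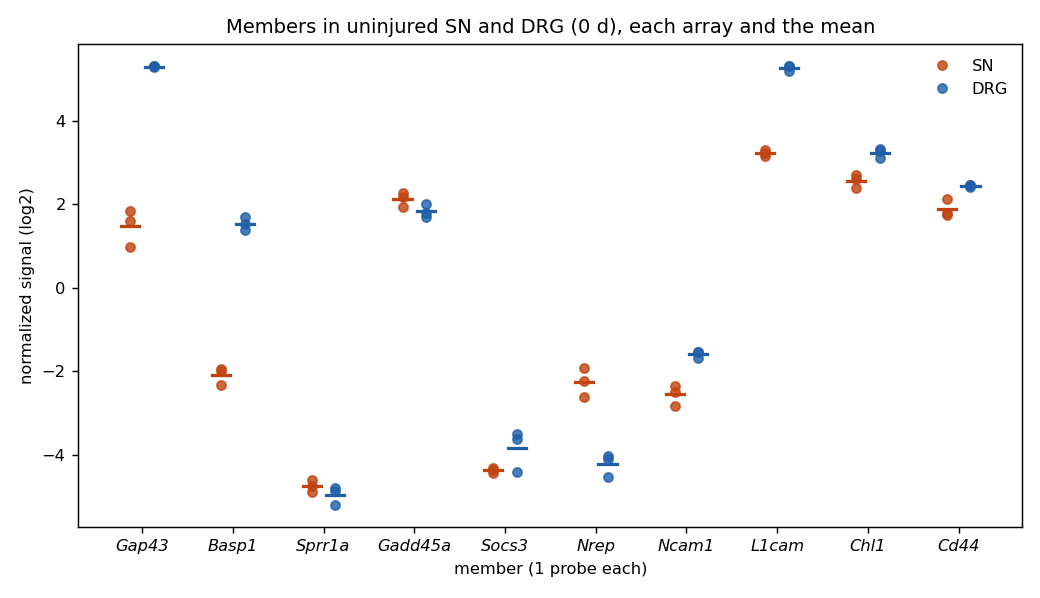
Normalized signal (log2) of the 10 members in uninjured tissue, each point an array at 0 d, 3 of SN and 3 of DRG. Gap43, Basp1 and L1cam sit higher in DRG and Nrep higher in SN with no overlap. Ncam1, Chl1 and Cd44 also sit higher in DRG with no overlap, by less than 2-fold, while Sprr1a, Gadd45a and Socs3 overlap between the tissues. Signals of different genes come from different probes and are not to be set against each other.

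After injury the members split by tissue. In DRG, 3 of 10 were called higher on each day, where 7.44%, 6.04%, 6.58% and 13% of all probes were at 1, 4, 7 and 14 d. Sprr1a and Gadd45a were among them on all 4 days, with Socs3 at 1 d and Gap43 at 4, 7 and 14 d. Ncam1 at 14 d was the 1 member called lower, where 0.46% of probes were, against 0.169%, 0.506% and 0.326% of probes and no member on the earlier days. In SN, 4, 3, 5 and 3 members were called higher at 1, 4, 7 and 14 d, against 18.6%, 15.9%, 18.1% and 14.3% of all probes. Nrep was called lower at 1 d, where 3.43% of probes were, and none of the 10 was called lower later (6.78%, 6.81% and 5.46% of probes).

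Basp1, Socs3 and Cd44 were called higher in SN on all 4 days. From 1 to 4 d, 7 of 10 members in SN and 5 of 10 in DRG had an adjusted p under 0.05. Of these, Nrep alone in SN and Sprr1a alone in DRG were over the fold threshold, where 8.53% and 4.27% of all probes were called. The share of all probes at a p threshold alone was not counted, for this step or the later ones. Member counts by p alone therefore have no background to be read against. From 4 to 7 d none was called in SN (2.6% of probes) or in DRG (0.177%), with 6 and 5 members at an unadjusted p under 0.05 and 5 and 0 at an adjusted one, and from 7 to 14 d none in DRG (0.0972%), with 5 at an unadjusted p under 0.05, all by limma. The changes from 0 d differed between the tissues for 7 of 10 members on each day, where 35.6%, 45.3%, 38.1% and 32.3% of all probes passed that test. With the slide as a block Socs3 no longer passed at 1, 4 and 14 d, nor L1cam at 1 d. The median change of the 10 members in SN ran from 0.063 at 1 d to 0.98 at 7 d, and in DRG from 0.28 at 1 d to 0.65 at 4 d, beside medians over all probes between 0.084 and 0.16. The later days share the 0 d arrays, so the comparisons of 1 tissue are not independent. All 0 d arrays were scanned together on slides of their own, and a change from 0 d within a tissue cannot be told apart from a difference between slides or scan days. The difference between the tissues' changes and the differences between some later days could be fitted with the slide as a block.

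**Figure D2:**
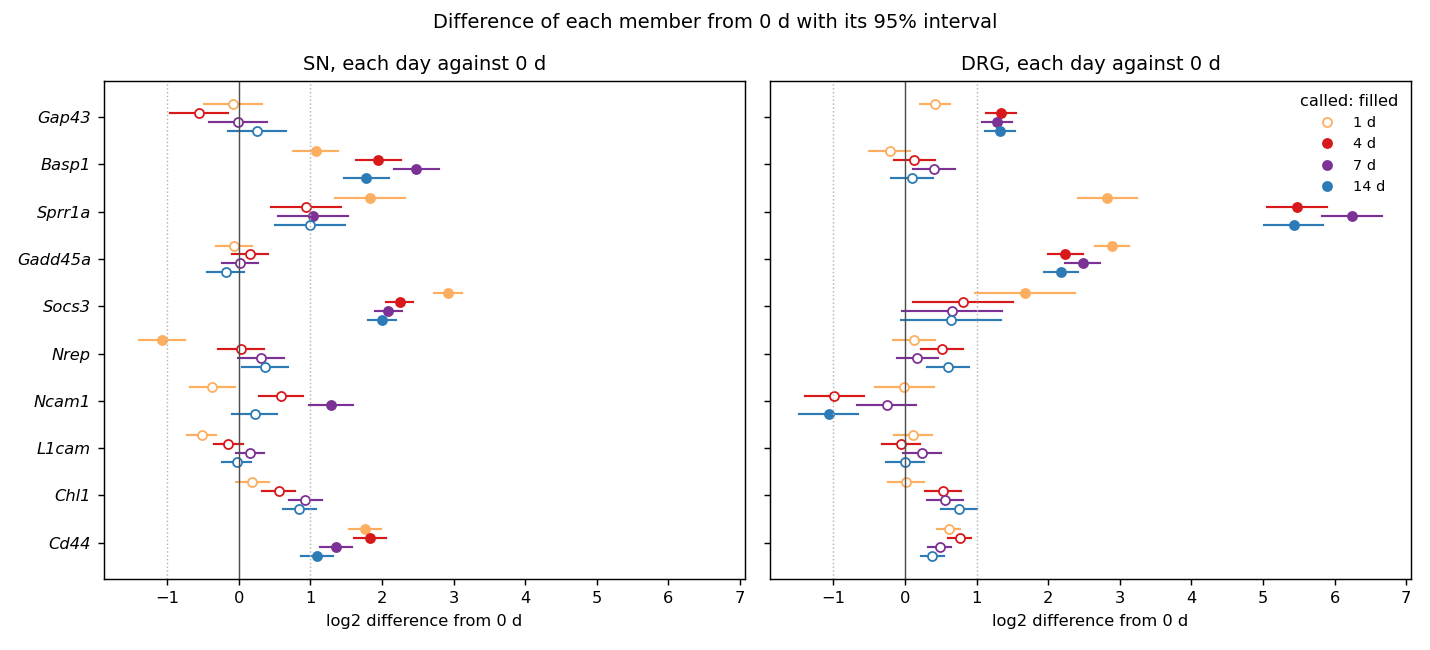
Log2 difference of each member from 0 d at 1, 4, 7 and 14 d in SN (left) and DRG (right), with its 95% interval from limma over 15 arrays a tissue. Filled points were called (adjusted p under 0.05 and over 2-fold, the dotted lines). Basp1, Socs3 and Cd44 are filled on all days in SN, and Sprr1a and Gadd45a on all days in DRG, where Sprr1a reaches 6.25 at 7 d.

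Gap43 changed in the ganglia and was not called in the nerve. In DRG its level was 5.28 to 5.31 at 0 d, 5.64 to 5.83 at 1 d, 6.47 to 6.86 at 4 d, 6.53 to 6.62 at 7 d and 6.57 to 6.70 at 14 d. The 4, 7 and 14 d arrays overlapped each other and all lay above those of 1 d, which lay above those of 0 d. The change was 2.53-fold at 4 d (1.34, SE 0.096, adjusted p = 1.83e-06), and the 2 later days gave 2.44-fold and 2.50-fold. At 1 d it was 1.34-fold (0.42, 95% interval 0.22 to 0.63).

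SN arrays gave Gap43 levels between 0.81 and 1.91 over all 5 days. The 0 d arrays, at 1.60, 1.83 and 0.98, spread as widely as the day means did, and the changes from 0 d were -0.081, -0.55, -0.0057 and 0.25 in order of day, with an adjusted p of 0.021 at 4 d. The 95% interval at 7 d was -0.41 to 0.40, so a 2-fold change lay outside it. The change in SN was lower than that in DRG from 4 d on (differences of -1.89, -1.29 and -1.07, adjusted p = 2.57e-07, 4.03e-05 and 0.00041). With the slide as a block these were -1.72, -1.33 and -1.02. Such differences passed the test for 45.3%, 38.1% and 32.3% of all probes on these days.

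Basp1 did the reverse. Its SN level was -2.34 to -1.94 at 0 d, -1.11 to -0.92 at 1 d, -0.31 to -0.061 at 4 d, 0.25 to 0.46 at 7 d and -0.54 to -0.0028 at 14 d. Every later array lay above all those of 0 d, the 7 d arrays lay above those of every other day, and 4 and 14 d overlapped. The change was 2.11-fold at 1 d (1.07, SE 0.14, adjusted p = 5.41e-05) and largest at 7 d with 5.57-fold (2.48, adjusted p = 8.65e-08), between 3.87-fold on day 4 and 3.44-fold on day 14. The 1 d value lay near the fold threshold and was 0.94 after quantile normalization and 0.95 without replicate 3 of 0 d, which ended the call.

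DRG levels of Basp1 stayed between 1.01 and 2.04 on all 15 arrays. No day was called, the largest change being 0.40 at 7 d (95% interval 0.11 to 0.69), and every SN array after injury was still below every DRG array. The change in SN exceeded that in DRG by 1.29, 1.82, 2.07 and 1.69 in order of day, with adjusted p of at most 3.26e-05, and by 1.21, 2.08, 2.14 and 1.63 with the slide as a block. At 1 d 35.6% of all probes passed this test.

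**Figure D3:**
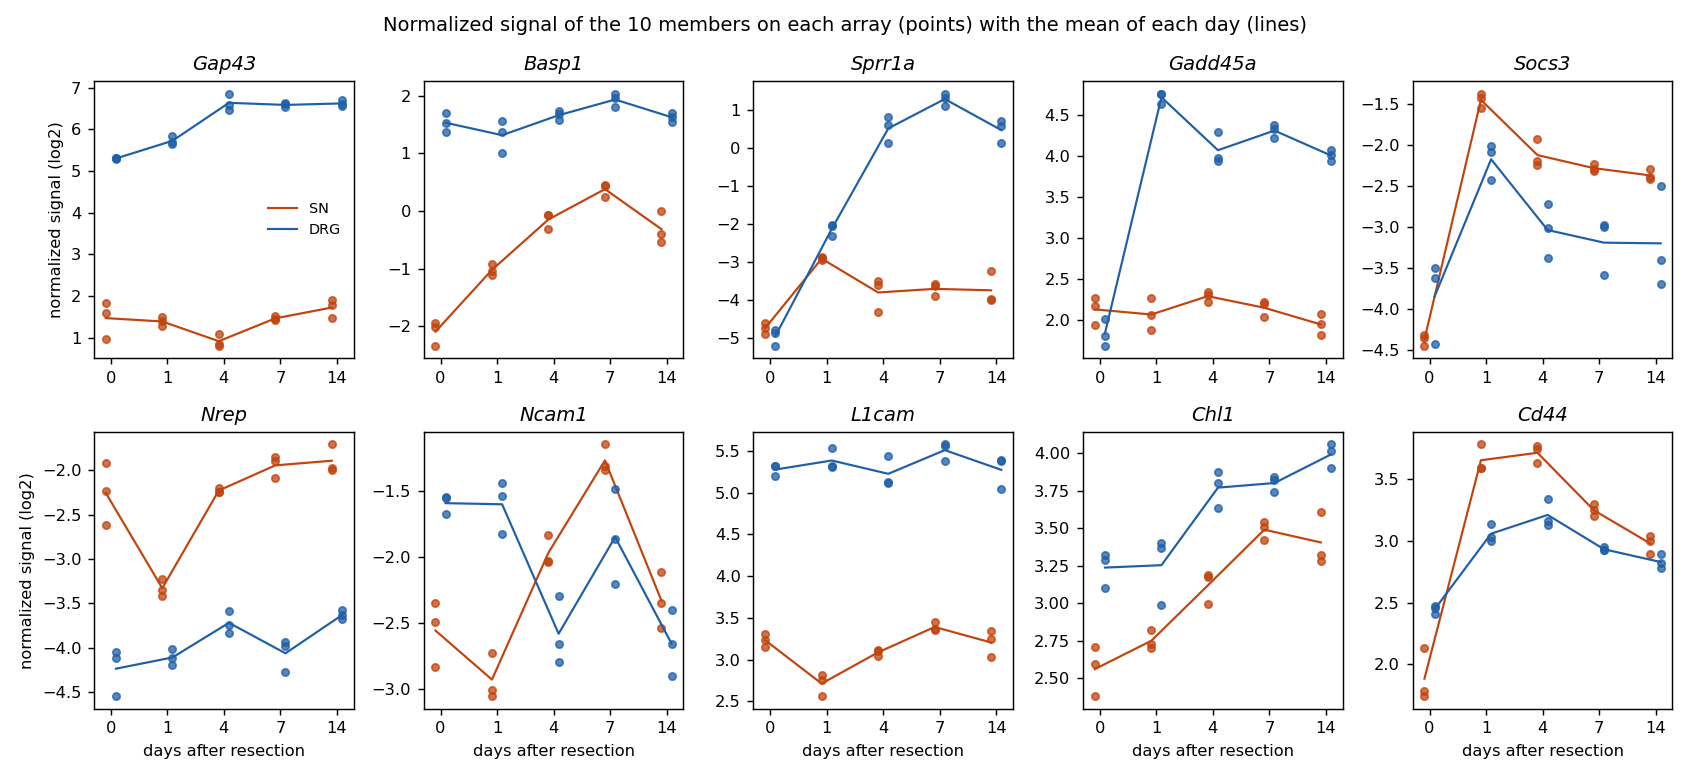
Normalized signal (log2) of each of the 10 members on all 30 arrays by day after resection, SN in orange and DRG in blue, with lines through the day means of 3 arrays. The day axis is evenly spaced and not to scale. Sprr1a, Gadd45a and Gap43 climb in DRG, Basp1, Socs3 and Cd44 climb in SN, and Ncam1 moves in opposite directions at 4 d.

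Sprr1a gave the largest change of the 10 members. In DRG it stood at -5.21, -4.80 and -4.88 at 0 d, at -2.07, -2.31 and -2.02 at 1 d, at 0.80, 0.13 and 0.60 at 4 d, at 1.43, 1.32 and 1.1 at 7 d, and at 0.12, 0.58 and 0.70 at 14 d. The groups of 0, 1 and 7 d overlapped with no other, while 4 and 14 d overlapped each other. It was 7.10-fold higher at 1 d (2.83, SE 0.19, adjusted p = 1.91e-06) and 75.8-fold at 7 d (6.25, adjusted p = 7.48e-10), with 44.4-fold on day 4 and 43.0-fold on day 14. The step from 1 to 4 d was 2.64 on the log2 scale (adjusted p = 8.56e-06) and was the 1 change between neighbouring days called among the members in DRG, where 4.27% of probes were called.

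SN levels of Sprr1a at 0 d, -4.89 to -4.61, overlapped with those of DRG. They were -2.96 to -2.88 at 1 d, -4.32 to -3.50 at 4 d, -3.91 to -3.59 at 7 d and -4.01 to -3.25 at 14 d. The change was 3.56-fold at 1 d (1.83, SE 0.23, adjusted p = 2.99e-05), and then 0.94, 1.04 and 0.997 on the log2 scale, of which that of 7 d passed the fold threshold by a small margin. Quantile normalization gave 0.58 at 7 d, and leaving out replicate 3 of 0 d or replicate 1 or 3 of 7 d gave 0.97, 0.97 and 0.996, so that call was lost. With normexp, a background correction of the raw signals followed by quantile normalization, the 1 d change was 0.85 in SN and not called, 1.64 in DRG and called, and the 7 d change in SN was 0.32 and not called. The DRG changes of the later days were then 4.03, 4.78 and 4.01 on the log2 scale, all called and each smaller than the values above.

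The gap between the tissues was -0.997, -4.53, -5.21 and -4.43 in order of day, SN change minus DRG change, with adjusted p of 0.014 for the first and of at most 3.28e-10 for the later ones. With the slide as a block it was -1.31, -5.29, -5.60 and -4.17. Of the further genes listed for the cornified envelope, 3 could be tested. Tgm1, the transglutaminase that cross-links small proline-rich proteins in skin, was called higher in DRG on all 4 days, by 3.66, 6.36, 6.31 and 5.54. In SN it was called at 1 d alone, at 1.69. Sprr1b, the other synonym that RefSeq lists for Sprr1a, was called in SN on all days (1.97 to 2.98) and in DRG at 1, 7 and 14 d (1.46 to 1.90). The Sprr1a values above therefore depend on which of these names is taken. Sprr3 was called in SN on all days (1.71 to 2.91), and its values in DRG were 0.066, -0.97, -0.76 and -0.37. Among all probes 14.3% to 18.6% were called higher in SN and 6.04% to 13% in DRG.

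Gadd45a was highest in DRG on the first day. It had 1.68 to 2.01 at 0 d, 4.63 to 4.76 at 1 d, 3.94 to 4.30 at 4 d, 4.22 to 4.38 at 7 d and 3.94 to 4.07 at 14 d. All injured arrays were far above the 0 d arrays, those of 1 d were above all others, and 4 d overlapped with 7 and with 14 d. The change was 7.40-fold at 1 d (2.89, SE 0.11, adjusted p = 1.54e-08) and between 4.52-fold and 5.58-fold on the later days.

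SN arrays held Gadd45a between 1.81 and 2.34 on all days. Changes there ran from -0.18 to 0.16, with 95% intervals inside -0.44 and 0.41, so a 2-fold change lay outside them. The difference between the tissues' changes was -2.95, -2.08, -2.46 and -2.36 at 1, 4, 7 and 14 d (adjusted p at most 1.05e-09). In the list of other Gadd45 and growth arrest genes, 2 of 8 were called higher in DRG on each day and none lower, with list medians of 0.30 to 0.48. They were Cdkn1a, the cell cycle inhibitor p21, at 1.75, 2.53, 2.67 and 2.35, and Gadd45g at 1.38, 1.64, 1.55 and 1.35. Across all probes 6.04% to 13% were called higher in DRG on these days and at most 0.506% lower. In SN, Cdkn1a was called higher at 4 d (1.1) and Ccng1, a cyclin of the p53 pathway, lower at 7 d (-1.19) and 14 d (-1.05).

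Upstream windows of Sprr1a and Gadd45a are printed as the members that were called in DRG on every day. RefSeq windows were held for 7 of the 10 members (GRCr8). The 250 bases before each start were searched on both strands for TGANTCA, the AP-1 motif, TGACGT, the core of the CRE, TTC and GAA 3 bases apart, the STAT motif, and GGGCGG, the GC box. The capitals mark the matches. For Sprr1a the window was chr2:180752626-180752875 and for Gadd45a chr4:97486800-97487049, both on the minus strand.
Sprr1a: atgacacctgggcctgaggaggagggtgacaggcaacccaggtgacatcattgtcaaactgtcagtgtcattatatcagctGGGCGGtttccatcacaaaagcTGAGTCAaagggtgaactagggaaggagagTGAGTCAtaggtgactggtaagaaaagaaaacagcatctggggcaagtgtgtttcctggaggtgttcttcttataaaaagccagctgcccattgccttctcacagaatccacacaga
Gadd45a: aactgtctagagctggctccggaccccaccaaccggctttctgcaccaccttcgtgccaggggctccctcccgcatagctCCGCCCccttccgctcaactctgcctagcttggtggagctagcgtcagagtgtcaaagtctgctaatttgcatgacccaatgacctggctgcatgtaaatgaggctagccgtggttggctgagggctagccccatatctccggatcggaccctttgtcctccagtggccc

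The Sprr1a window held TGANTCA at 147 and 117 bases before the start and GGGCGG at 169, and the Gadd45a window held GGGCGG at 170 on the other strand. Basp1 held GGGCGG at 4 positions, of which 2 overlap. No other match was found in the 7 windows. Over 33469 windows, TGANTCA was in 6.34%, TGACGT in 6.95%, the STAT motif in 7.67% and GGGCGG in 30.5%. A match describes the letters of the window and is not evidence that a factor was bound there.

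Socs3 had the largest change of the members in SN. Its SN level was -4.45 to -4.32 at 0 d, -1.56 to -1.38 at 1 d, -2.24 to -1.93 at 4 d, -2.32 to -2.24 at 7 d and -2.42 to -2.30 at 14 d. The 1 d arrays were above all others and every injured array was above all 0 d arrays. It was 7.57-fold higher at 1 d (2.92, SE 0.088, adjusted p = 1.16e-09), and the fold fell to 4.75, 4.25 and 4.0 on the later days. The normexp background correction, which compresses dim probes, gave 1.83, 1.29, 1.06 and 1.03, all still called.

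DRG arrays of a day were spread more widely for Socs3, with -4.43, -3.50 and -3.62 before injury and -2.01, -2.43 and -2.09 on day 1. Later levels were -3.39 to -2.72 on day 4, -3.59 to -2.98 on day 7, and -3.70, -2.50 and -3.41 on day 14. The 1 d arrays lay above all of 0 d, while those of 7 and 14 d overlapped with 0 d. The 1 d change was 3.19-fold (1.67, SE 0.32, adjusted p = 0.0037), and by the methods' t-test the adjusted p was 0.069. The later changes, 0.81, 0.66 and 0.65, were not called, and the 95% interval at 14 d ran from -0.052 to 1.35.

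The SN change of Socs3 exceeded the DRG change by 1.25, 1.44, 1.43 and 1.35 (adjusted p = 0.0071, 0.0017, 0.0021 and 0.0042). With the slide as a block the values were 0.51, 0.74, 1.25 and 0.85 and only that of 7 d passed, so the difference at 1, 4 and 14 d depended on how slides were treated. In its pathway Socs1, a related inhibitor, was called in SN on all 4 days at 1.04 to 1.63, and Stat3, the transcription factor upstream, at 1, 4 and 7 d (1.42, 1.18 and 1.11). Of 12 genes of this pathway, 2, 2, 3 and 1 were called higher in SN and none lower, with medians of 0.56 to 0.80. Among all probes 18.6%, 15.9%, 18.1% and 14.3% were called higher in SN, so these counts lay near that share or below it. In DRG, 1 of 12 was called, Cish at 1 d (1.08), where 7.44% of all probes were called higher, and none later.

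Nrep dipped in the nerve. Its SN level was -1.92, -2.23 and -2.61 before injury, -3.22, -3.34 and -3.42 on day 1, and -2.24, -2.24 and -2.19 on day 4. Day 7 gave -2.08, -1.85 and -1.89, and day 14 gave -1.70, -2.0 and -1.97. The 1 d arrays were below all others and the remaining days were close to 0 d. The 1 d change was -1.08 (2.11-fold lower, SE 0.15, adjusted p = 6.51e-05), and the rise from 1 to 4 d was 1.1 (adjusted p = 0.0002), called where 8.53% of probes were. Without replicate 1 of 0 d the 1 d change was -0.91 and with normexp -0.99, both under the fold threshold, and the rise was 0.85 with normexp and 0.93 as the mean of both probes, also under it. The second Nrep probe gave -0.93 at 1 d and 0.76 from 1 to 4 d, with neither called.

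In DRG Nrep ran from -4.55 to -3.58, and the changes, at most 0.61 (14 d), were not called. The SN change was below the DRG change at 1 d by -1.20 (adjusted p = 8.74e-05), and from 4 d on the differences of -0.49, 0.14 and -0.24 did not pass.

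Ncam1, the neural cell adhesion molecule, was called higher in SN at 7 d and lower in DRG at 14 d, and at 4 d it was 0.59 in SN and -0.99 in DRG (adjusted p = 0.0036 and 0.0030). Its SN level was -2.83 to -2.35 at 0 d, -3.05 to -2.72 at 1 d, -2.04 to -1.83 at 4 d, -1.34 to -1.14 at 7 d and -2.53 to -2.11 at 14 d. The 7 d arrays were above all others of SN, and those of 14 d overlapped with 0 d. At 7 d it was 2.44-fold higher (1.29, SE 0.14, adjusted p = 1.07e-05), or 0.90 and not called under normexp.

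From 7 to 14 d Ncam1 fell by 1.06 on the log2 scale in SN (adjusted p = 0.0015), where 1.65% of probes were called. With the slide as a block that fall was -0.51 with adjusted p of 0.55, and it was -0.96 without replicate 2 of 14 d. In DRG the level was -1.67 to -1.54 at 0 d, -1.82 to -1.44 at 1 d, -2.79 to -2.29 at 4 d, -2.20 to -1.48 at 7 d and -2.90 to -2.40 at 14 d. The 4 and 14 d arrays lay below all of 0 d, while 7 d overlapped with 0 d.

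The DRG change of Ncam1 was -1.06 at 14 d (2.09-fold lower, SE 0.19, adjusted p = 0.0012). At 4 d it was -0.99, just under the fold threshold, and quantile normalization gave -1.09, which was called. Without replicate 3 of 14 d the 14 d change was -0.94. The change in SN exceeded that in DRG by 1.58, 1.54 and 1.29 from 4 d on (adjusted p = 1.81e-05, 2.65e-05 and 0.00026). At 1 d the difference was -0.36 and did not pass.

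L1cam and Chl1, a close relative of L1cam, changed less. L1cam ran from 2.56 to 3.45 on the SN arrays and from 5.04 to 5.58 on the DRG arrays, without a call on any day. Its lowest SN arrays were those of 1 d, at 2.82, 2.76 and 2.56, all below the 0 d arrays, with a change of -0.52 (adjusted p = 0.00042, 1.43-fold). That change was lower than in DRG by -0.63 (adjusted p = 0.0025), or -0.63 with adjusted p of 0.054 when the slide was a block.

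Chl1 climbed slowly in both tissues. In SN it had 2.38 to 2.71 at 0 d, 2.70 to 2.82 at 1 d, 2.99 to 3.19 at 4 d, 3.42 to 3.54 at 7 d and 3.29 to 3.61 at 14 d. DRG levels were 3.10 to 3.33 at 0 d, 2.99 to 3.41 at 1 d, 3.63 to 3.88 at 4 d, 3.74 to 3.84 at 7 d and 3.90 to 4.06 at 14 d. From 4 d on all arrays of both tissues were above their own 0 d arrays.

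The changes of Chl1 were 0.93 in SN at 7 d (adjusted p = 1.25e-05) and 0.75 in DRG at 14 d, both under the fold threshold. Its other probes gave 1.25 and 1.01 in SN at 7 d, both called, and 1 of them gave 1.05 in DRG at 7 d, also called, while quantile normalization gave 1.07 for the main probe in SN. Whether Chl1 is counted as changed therefore depended on the probe and the scaling. The differences between the tissues' changes, 0.17, 0.025, 0.37 and 0.090, did not pass. That of 7 d had an adjusted p of 0.067 by limma and depended on the scaling. It passed with quantile normalization (0.49, adjusted p = 0.024 by limma) and with normexp (0.46, adjusted p = 0.034), and did not with the slide as a block.

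Among the 10 further adhesion and polysialylation genes, none was called in DRG on any day. In SN 0, 2, 2 and 2 were called higher and 1, 2, 2 and 3 lower at 1, 4, 7 and 14 d, with list medians between -0.32 and -0.077. The shares of all probes were 14.3% to 18.6% higher and 3.43% to 6.81% lower in SN, and 6.04% to 13% higher in DRG. St8sia2 and St8sia4 are the enzymes that build polysialic acid on NCAM1. St8sia2 was lower in SN on all 4 days (-1.47, -2.0, -1.69 and -1.60), and St8sia4 was higher at 4 d (1.41) and 7 d (1.11). Cntn1, an axonal adhesion molecule, was higher at 4, 7 and 14 d (1.71, 2.44 and 1.71).

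Cd44 was higher in SN from the first day. Its SN level was 1.74, 2.13 and 1.78 before injury, 3.78, 3.59 and 3.58 on day 1, and 3.63, 3.74 and 3.77 on day 4. Day 7 gave 3.20 to 3.29 and day 14 gave 2.89 to 3.04. The 1 and 4 d arrays overlapped and lay above all others, those of 7 d came next, then 14 d, then 0 d. The change was 3.40-fold at 1 d (1.77, SE 0.10, adjusted p = 1.64e-07), and 3.55-fold, 2.57-fold and 2.13-fold on the days after it. As the mean over the Cd44 probes the 14 d change was 0.80 and not called.

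The second Cd44 probe, which spans 3683 bases of the genome, was not well above background on any 0 d array of either tissue. Its signal was at least 2.57-fold higher in SN at 1 d, and at least 1.86-fold and 1.12-fold on the 2 next days measured, each against the lowest signal well above background on the 0 d arrays. It entered the tests only through the injured days on which it was brighter, so the adjusted p of the fit, 2.66e-06 at 1 d and 1.12e-05 at 4 d, is given as a description and not as support. In DRG it was well above background on all arrays of 4 d and on no array of 7 or 14 d.

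DRG levels of Cd44 from the main probe were 2.41 to 2.47 at 0 d, 3.0 to 3.14 at 1 d, 3.13 to 3.34 at 4 d, 2.92 to 2.95 at 7 d and 2.78 to 2.89 at 14 d. Every injured array was above the 0 d arrays, yet the changes, 0.61, 0.76, 0.49 and 0.38, stayed under the fold threshold. The SN change was larger than the DRG change by 1.15, 1.06, 0.88 and 0.71 (adjusted p at most 8.61e-05), and by 1.18, 1.08, 0.85 and 0.69 with the slide as a block.

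Of 12 genes listed as Cd44 ligands, hyaluronan synthases and linkers, Has1, which makes hyaluronan, was called higher on all days in both tissues, at 2.06 to 2.60 in SN and 3.81 to 5.31 in DRG. Mmp9, a protease that CD44 can hold at the cell surface, was higher in SN on all days (3.03 to 5.13) and in DRG its values were -0.66 to -0.074. Spp1, osteopontin and a ligand of CD44, was lower in SN at 7 d (-1.22) and 14 d (-2.08). In SN 3, 2, 3 and 2 of the 12 were called higher and 0, 0, 2 and 2 lower, and in DRG Has1 alone of 11 tested was called, with medians of 0.44 to 0.62 and of -0.035 to 0.36. Among all probes 14.3% to 18.6% were called higher in SN and 3.43% to 6.81% lower, and 6.04% to 13% higher in DRG.

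**Figure D4:**
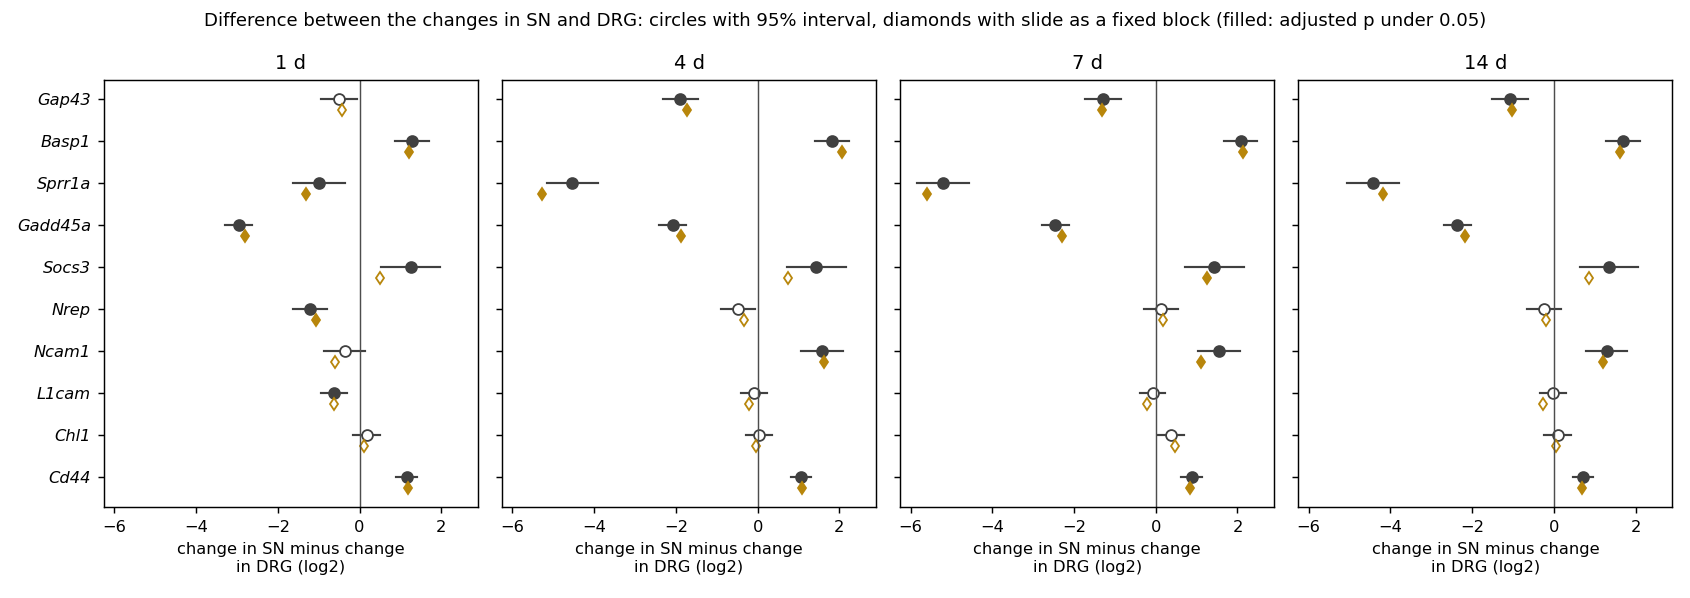
Change in SN minus change in DRG (log2) of each member at 1, 4, 7 and 14 d, circles with their 95% interval from the fit on 30 arrays and diamonds with the slide as a fixed block. Filled symbols passed an adjusted p of 0.05. Basp1 and Cd44 lie to the right and Gadd45a and Sprr1a to the left on every day with both fits, while Socs3 loses its filled symbol at 1, 4 and 14 d with the slide as a block.

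Growth cone genes outside the members were listed in the same way. Of 17 cytoskeletal genes of growth cones, 1 at 1 d and 2 at each later day were called higher in DRG and none lower, with medians of 0.070 to 0.25. Stmn4, of the stathmin family of tubulin-binding proteins, was called on all 4 days at 2.03, 2.82, 2.75 and 2.61. In SN 1, 0, 1 and 1 of the 17 were called higher and 2, 2, 4 and 5 lower, with Fez1, an adaptor of axonal transport, at -1.07, -1.95, -2.39 and -2.30, and Stmn2 at -1.52, -1.65 and -1.72 from 4 d. Beside these counts, 6.04% to 13% of all probes were called higher in DRG. In SN 14.3% to 18.6% of all probes were called higher and 3.43% to 6.81% lower.

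Of 9 other growth cone phosphoproteins and their kinases, 1, 0, 0 and 0 were called higher and 0, 1, 0 and 1 lower in DRG. In SN 0, 1, 0 and 0 were higher and 0, 2, 2 and 1 lower, among them Prkca, a protein kinase C, at -1.21, -1.12 and -1.42 from 4 d. Protein kinase C phosphorylates GAP43, and Prkcb was called higher in SN at 4 d (1.38). All probes together had 14.3% to 18.6% called higher and 3.43% to 6.81% lower in SN, and 6.04% to 13% higher in DRG.

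A further list held 22 other regeneration-associated genes of the neuron cell body. In DRG 13, 14, 14 and 13 of them were called higher and none lower, with medians of 1.18, 1.67, 1.54 and 1.56. Among all DRG probes 7.44%, 6.04%, 6.58% and 13% were called higher and at most 0.506% lower. Atf3, a transcription factor of injured neurons, was at 4.53, 4.36, 4.13 and 4.23, and Gal, which encodes galanin, at 1.27, 4.18, 4.32 and 4.14. In SN 8, 6, 6 and 4 were called higher and 2 lower on each day, where 18.6%, 15.9%, 18.1% and 14.3% of all probes were higher. The lower calls stood beside 3.43% to 6.81% of all probes. Sox11, a transcription factor, was at 3.53 and Arg1, an arginase, at 3.03 at 1 d, Atf3 was at -0.33 to 0.36 without a call, and Gal was lower at 1, 7 and 14 d (-1.68, -1.22 and -1.67).

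Genes most like each member across the 15 arrays of the tissue in which it varied more were found by Pearson's r, as a description over arrays that share days, slides and controls. In DRG these were Gal (r = 0.993), Cacna2d1 and Il24 for Gap43, Ptprh (0.996), Csf1 and Il13ra1 for Sprr1a, and Pvr (0.989), Flrt3 and Adcyap1 for Gadd45a. In SN they were Lbp (0.987), Plekho1 and MGC94282 for Basp1, and Stat3 (0.985), Scnn1a and Or2t45 for Socs3. Nrep was followed most closely by Postn (0.970), Prnd and Thnsl2, and Ncam1 by Cdh2 (0.965), Bambi and Fam48a. For Cd44 they were RGD1562156 (0.991), Ptger2 and Lst1, for Chl1 Odz3 (0.971), Znf184 and Rad54l2, and for L1cam Nat14 (0.948), B9d2 and Tktl1. Between the members themselves, Gap43 and Sprr1a had r = 0.958 in DRG and Socs3 and Cd44 had r = 0.937 in SN, the highest of the 45 pairs of each tissue.

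Markers of cell types moved with these changes and their part in them was not tested. The mean level of 12 sensory neuron genes was 5.46 to 5.51 on the DRG arrays of 0 d and 5.02 to 5.41 on those of later days, without overlap, and -2.90 to -1.80 on the SN arrays. In SN the mean of 8 macrophage genes was 0.56 to 0.76 at 0 d and 1.46 to 2.90 later, with 7, 8, 7 and 6 of 8 called higher, and that of 6 T cell genes was -4.57 to -4.29 and -2.54 to -0.50. That of 5 neutrophil genes in SN was -4.85 to -4.29 at 0 d, -1.37 to -0.56 at 1 d, when Socs3 and Sprr1a were highest there, and -3.35 to -2.85 later. Fibroblast genes (6) had 7.02 to 7.16 in SN at 0 d and 6.46 to 6.80 later. The mean of 10 Schwann cell genes was 5.04 to 5.23 at 0 d and 4.21 to 5.01 later. The mean of 7 skeletal muscle genes ranged from 3.40 to 7.47 on the 0 d SN arrays alone. Its SN day means, listed from uninjured to last day, were 4.91, 4.21, -0.10, 1.17 and 3.96. Every SN array of day 4 (-1.25 to 1.35) and of day 7 (-1.33 to 2.78) lay below the uninjured ones. The DRG day means, in the same order, were 3.12, 4.38, 3.30, 2.28 and 2.73. In DRG no sensory neuron gene was called on any day, and 0, 3, 5 and 4 of 8 macrophage genes were called higher. The shares of all probes called higher were 14.3% to 18.6% in SN and 6.04% to 13% in DRG. T cell genes in DRG had -5.38 to -4.86 at 0 d and -3.52 to -3.30 at 14 d. The arrays had 26914 to 35541 probes well above background, 26914 to 32586 on the 0 d arrays and 33049 to 35541 on later arrays. For 6 of 30, the highest r with any single array of another day of the tissue exceeded the mean r with their own day.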

How the data were processed

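RNA of 30 arrays was labelled in 1 colour, and the authors read the intensity of each spot with Agilent Feature Extraction (version 10.5.1.1). Per the file headers that processed intensity is background-subtracted and not normalized between arrays. The log2 values of the authors' deposited matrix have the same distribution on all arrays and were used as an alternative. From the deposited files, spots with outlier flags were left out, log2 intensity was averaged over the spots of a probe, and the 75th percentile of the array was subtracted. A probe entered the tests if it was well above background throughout the 3 arrays of some day. This gave 35157 probes for SN, 34968 for DRG and 33796 for comparisons of both, which were fitted with limma 3.58.1 (R 4.3.3), on 15 arrays a tissue or on all 30 for differences between tissues. No spot was saturated. The number of arrays, 3 a group, limits the precision. Labels name mirVana and the study's methods Trizol for the RNA extraction.

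The members and gene lists were chosen with earlier results of these data known. All members were named, each by its brightest probe, with the 3 genes of highest Pearson's r, and from each list mainly genes with the largest called changes. Of 17504 RefSeq accessions on the array 13088 matched RefSeq's gene table. Alternatives were the background correction, the scaling, the filter, the slide or scan day as a block, the replicate number as a block, the mean over a gene's probes, the methods' t-test, the arrays compared alone and leaving out each array.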

Additional observations from a re-analysis of the deposited data

Results flagged for a closer look

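Each value here is the change from 0 d in SN minus that in DRG on the log2 scale, and each was flagged because the difference itself passed the test in the fit on all 30 arrays (adjusted p under 0.05 by limma). Gadd45a differed by -2.95, -2.08, -2.46 and -2.36 at 1, 4, 7 and 14 d, and Sprr1a by -0.997, -4.53, -5.21 and -4.43. Gap43 differed by -1.89, -1.29 and -1.07 from 4 d on. Basp1 differed by 1.29, 1.82, 2.07 and 1.69 at 1, 4, 7 and 14 d, Cd44 by 1.15, 1.06, 0.88 and 0.71, and Socs3 by 1.25, 1.44, 1.43 and 1.35. Ncam1 differed by 1.58, 1.54 and 1.29 from 4 d on. At 1 d alone, Nrep differed by -1.20 and L1cam by -0.63. With the slide as a block Socs3 at 1, 4 and 14 d (adjusted p = 0.46, 0.20 and 0.19) and L1cam at 1 d (0.054) did not pass, and with normexp L1cam did not (0.10). These 28 differences share the 0 d arrays of both tissues. Of all probes, 35.6%, 45.3%, 38.1% and 32.3% passed the same test at 1, 4, 7 and 14 d.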

How the results depend on the processing

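No value of a called member changed sign under any alternative. Members called numbered 2 under normexp at SN 1 d (5 in the report) and 0 from 1 to 4 d and from 7 to 14 d in SN (1 each). From 1 to 4 d the count was 2 in SN with the authors' matrix or quantile normalization, 0 with the mean over a gene's probes and 3 with the slide as a fixed block, and in DRG 2 with quantile normalization or the percentile over probes above background on all arrays (1 each in the report). With the slide fixed, 0 was called from 7 to 14 d in SN. Leaving out single arrays gave 1 to 2 from 1 to 4 d in either tissue and 0 to 1 from 7 to 14 d in SN. Of 64 called member values, 62 stayed called with quantile normalization or the authors' matrix, 56 with normexp, 64 with slides as a random block, and 30 of 35 with slides fixed, where the layout allowed it. The causes were not tested.

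Quantile normalization moved the median over all probes from 0.11 to -0.08 at SN 1 d and from 0.16 to 0.03 at SN 14 d. The share of calls that were higher went from 84.5% to 62.9%, 70.1% to 56.6%, 72.7% to 55.8% and 72.4% to 53.7% in SN at 1, 4, 7 and 14 d, and from 97.8% to 86.1%, 92.3% to 75.8%, 95.3% to 82.8% and 96.6% to 73% in DRG. With no filter on dim probes it was 46.7% in DRG at 4 d, as 2392 probes were then called lower.

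Counts over all probes moved under normexp, from 7759 to 2277 at SN 1 d and from 4714 to 651 at DRG 14 d, with probes above background on every array, from 2659 to 721 at DRG 1 d, and with the slide fixed, from 12037 to 5220 for the difference between tissues at 1 d. From 4 to 7 d in DRG the count ran from 6, without replicate 3 of 7 d, to 582, without replicate 1 of 4 d (62 in the report), and from 7 to 14 d from 0, without replicate 2 of 7 d, to 645, without replicate 1 of 7 d (34). With only the arrays compared both were 0, and from 7 to 14 d the count was 645 with the scan day fixed. With the replicate block they were 36 and 4.

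Whether the replicate numbers pair the samples is not known. Same-numbered SN and DRG arrays of a day deviated from their group means with r from -0.19 to 0.25. These were not set beside arrays of different numbers, so they cannot decide whether the tissues came from the same rats. The fit with the replicate block kept all 64 calls and added Nrep for the difference at 4 d (-0.49, adjusted p = 0.023 by limma).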
